A study of Mus musculus with 8 samples.

Results

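The 9 genes described here encode the receptors and binding proteins through which cells take up, carry and respond to retinoic acid (RA), the active form of vitamin A. They were chosen by name from the C57BL/6J read count table, by matching its Ensembl identifiers to the symbols *Rara*, *Rarb*, *Rarg*, *Rxra*, *Rxrb*, *Rxrg*, *Crabp1*, *Crabp2* and *Stra6*. All 9 were among the 49585 genes of the table, and all 9 passed the filter on low counts that left 23113 genes for testing. RNA-seq had been performed on homogenized whole brains of newborn F1 females, taken within a day of birth, from C57BL/6J ('B') mothers and CAST/EiJ ('C') fathers, a cross called B × C. The F1 0ppm group held 4 pups whose mothers drank water without cadmium (Cd), and the F1 50ppm group held 4 pups whose mothers drank water with 50 ppm CdCl2 before and during pregnancy. Each pup came from a different litter and exposure of the mothers ended at birth. Replicate numbers below only name the pups. Each library held between 22916434 and 30708087 counted reads. Levels are given in CPM, reads of a gene scaled to a common library total after TMM normalization, and the question asked of each gene was whether its RNA differed with maternal Cd exposure.

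RA is made inside cells from retinol, which STRA6 takes up from its carrier in blood. CRABP proteins hold RA in the cytoplasm, CRABP2 handing it to nuclear receptors and CRABP1 often described as leading it to breakdown. RA receptors (RARs) pair with retinoid X receptors (RXRs) on RA response elements, which are direct repeats of a short half-site. RXRs also pair with many other nuclear receptors, and in the brain RA signaling is known for its part in hindbrain patterning and in the growth of the striatum, where *Rarb* and *Rxrg* RNA is abundant.

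*Rarb* is a receptor gene that is itself a classical RA target. Its RNA had the greatest difference between the groups among the 9 genes when all 8 brains were used. This was no longer so when control replicate 3, exposed replicate 1 or exposed replicate 3 was left out. Among the promoters examined for the 9 genes, only that of *Rarb* held such a direct repeat. RefSeq promoter windows of 300 bases (250 before the start to 50 after it, GRCm38.p6) were at hand for 8 of the 9 genes, *Crabp2* being without one. The windows were searched on both strands for 2 half-sites, each AGGTCA or AGTTCA or GGGTCA or GGTTCA, spaced by 1, 2 or 5 bases. The *Rarb* element had a spacing of 5 bases and is printed here with the element of *Cyp26a1*, a gene for an RA-degrading enzyme and the only gene of the RA target list below whose window held this spacing. Both are read 5′ to 3′ along the repeat, with 6 bases on either side and the half-sites in capitals.

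*Rarb*, chr14:16575507-16575535, minus strand: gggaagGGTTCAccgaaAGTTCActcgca

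*Cyp26a1*, chr19:37697770-37697798, minus strand: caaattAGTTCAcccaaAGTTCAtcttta

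The repeat of *Rarb* lay on the strand of the gene, from 53 to 37 bases before the RefSeq start, and inside an annotated exon of 2 *Rarb* transcripts. The repeat of *Cyp26a1* lay 32 to 16 bases before the start, on the strand opposite to the gene. A repeat with a spacing of 5 was found in 32 of 32851 promoter windows (0.0974%), one with a spacing of 1 in 73 (0.222%) and one with a spacing of 2 in 88 (0.268%). These matches describe the letters only, and binding was not measured.

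None of the 9 genes differed between the F1 50ppm and 0ppm brains at an adjusted p of 0.05 in edgeR's quasi-likelihood test, where 0.0173% of all genes tested (4 of 23113) did. The adjusted p was 0.999 for every one of them. DESeq2 also called 0 of the 9, against 0.0862% of its genes (18 of 20871). At an unadjusted p under 0.05, edgeR and DESeq2 each picked 1 of the 9, *Rarb*, which was lower in exposed brains. Of all genes, 3.75% were below this p in edgeR (2.31% higher and 1.44% lower in exposed brains) and 2.81% in DESeq2. The log2 fold change of 50ppm over 0ppm was positive for 4 genes and negative for 5, with a median of -0.043 over the 9 genes and of -0.0033 over all genes tested. The 4 exposed brains overlapped the 4 control brains for every gene of the set, whereas the groups did not overlap for 2.09% of all genes.

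The intervals of these differences were narrow. The 95% intervals of all 9 genes lay within a 1.5-fold difference in either direction, reaching from -0.56 for *Rarb* to 0.49 for *Crabp1* on the log2 scale. The same held for 87.1% of the 14602 genes with a mean of at least 1 CPM. These intervals are not adjusted for the number of genes tested. The smallest difference that 4 brains per group could detect at the adjusted threshold was not determined.

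**Figure D1:**
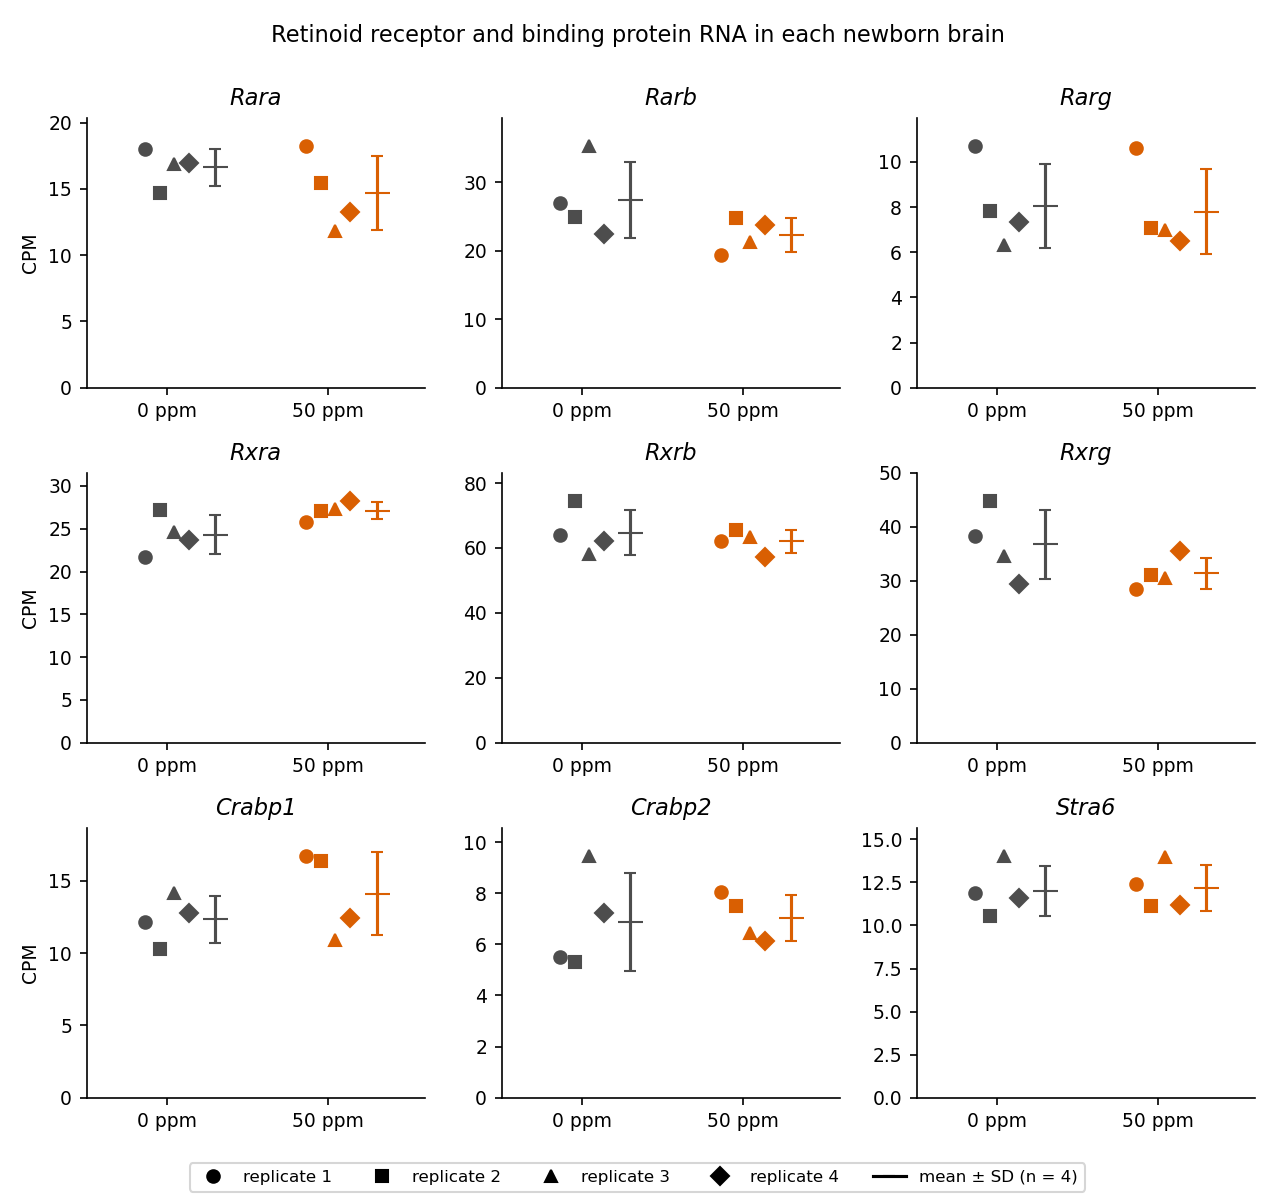
CPM (vertical axes, starting at 0) of the 9 genes in each newborn brain, with 0 ppm in grey and 50 ppm in orange, symbols for replicates 1 to 4, and a horizontal tick with bars for the mean ± SD (n = 4). The grey and orange points overlap in every panel, and the *Rarb* point of 0ppm replicate 3 (35.2 CPM) lies above the other 7 brains.

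The RARs are the receptors that bind RA itself. *Rarb* (chr14:16430839-16819156, minus strand of GRCm38) was present at 27.0, 25.0, 35.2 and 22.5 CPM in the control brains and at 19.3, 24.8, 21.3 and 23.8 CPM in the exposed brains. The highest exposed brain was below 3 of the 4 control brains, and the lowest control brain was within the range of the exposed brains. The means were 27.4 ± 5.53 and 22.3 ± 2.47 CPM (SD, n = 4), and the log2 fold change was -0.30 (SE 0.12, 95% interval -0.56 to -0.037; edgeR's adjusted p = 0.999, unadjusted p = 0.0275). Without 0ppm replicate 3, the brain with the highest value, this difference was -0.15 on the log2 scale, and edgeR gave an unadjusted p of 0.178 (adjusted p = 0.994). *Rarb* then no longer had the greatest difference of the 9 genes. *Crabp1* at 0.27, *Rxrg* at -0.26, *Crabp2* at 0.23, *Rara* at -0.17 and *Rxra* at 0.16 were ahead of it. Without exposed replicate 1, *Rara* at -0.30 was ahead of *Rarb* at -0.23. Without exposed replicate 3, *Crabp1* at 0.31 was ahead of *Rarb* at -0.27.

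The *Rarb* count carries a further uncertainty. Exons of *Top2b*, which encodes a DNA topoisomerase, and of the predicted gene *Gm48162* lie on the opposite strand and overlap 38.4% of the exon length of *Rarb*. The library kit keeps the strand, but the strand setting of the read counting is not given in the sources used here. Reads on the overlap may therefore have been left uncounted or given to another gene. Whether this lowered or raised the *Rarb* count is not known. *Top2b* was at 562 ± 23.5 CPM in control and 530 ± 23.9 CPM in exposed brains (SD, n = 4), between 15.03 and 26.2 times the CPM of *Rarb* in the same brain, and its log2 fold change was -0.087 (SE 0.063; edgeR's adjusted p = 0.999). Its part in the *Rarb* count was not tested. The same uncertainty holds for the level of *Rarb* per kilobase and for its share of the RAR family, both given below. The exons of the other 8 genes overlap no gene on either strand.

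*Rara* (chr11:98927818-98974942, plus strand), the most widely expressed RAR gene, was at 18.0, 14.7, 16.9 and 16.9 CPM in control brains and at 18.2, 15.4, 11.8 and 13.2 CPM in exposed brains. The highest and the lowest of the 8 values were both in the exposed group. Its log2 fold change was -0.18 (SE 0.13, 95% interval -0.45 to 0.089). It was -0.081 without exposed replicate 3 and -0.30 without exposed replicate 1, where edgeR's adjusted p was 0.999 and its unadjusted p 0.0282. *Rarg* (chr15:102234938-102257517, minus strand), the RAR best known from skin and cartilage, was at 10.7, 7.81, 6.30 and 7.36 CPM in control brains and at 10.6, 7.09, 6.99 and 6.48 CPM in exposed brains. In each group a single brain stood above the other 3, and the log2 fold change was -0.043 (SE 0.18, 95% interval -0.42 to 0.33).

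The RXRs are the partners shared with other nuclear receptors. *Rxra* (chr2:27676440-27762957, plus strand) was at 21.7, 27.2, 24.6 and 23.7 CPM in control brains and at 25.8, 27.0, 27.3 and 28.2 CPM in exposed brains. All 4 exposed brains were above 3 of the control brains, and control replicate 2 was within the exposed range. The log2 fold change was 0.15 (SE 0.091, 95% interval -0.036 to 0.34), with an unadjusted p of 0.105 and an adjusted p of 0.999 in edgeR.

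*Rxrb* (chr17:34031812-34038399, plus strand), found in nearly all tissues, was at 64.0, 74.3, 58.1 and 62.1 CPM in control brains and at 62.3, 65.6, 63.4 and 57.3 CPM in exposed brains. The groups lay on the same range apart from the high value of control replicate 2, and the log2 fold change was -0.057 (SE 0.083, 95% interval -0.23 to 0.12). *Rxrg* (chr1:167598384-167639623, plus strand), the most restricted RXR and known from the striatum, pituitary and muscle, was at 38.3, 44.7, 34.5 and 29.5 CPM in control brains and at 28.5, 31.0, 30.5 and 35.4 CPM in exposed brains. Control replicates 1 and 2 were above all exposed brains, and control replicate 4 was below all but 1 of them. Its log2 fold change was -0.23 (SE 0.11, 95% interval -0.46 to 0.0039; edgeR's adjusted p = 0.999, unadjusted p = 0.0536). Without control replicate 2 it was -0.12.

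*Crabp1* (chr9:54764748-54773110, plus strand) was at 12.2, 10.3, 14.2 and 12.8 CPM in control brains and at 16.7, 16.4, 10.9 and 12.4 CPM in exposed brains. Exposed replicates 1 and 2 were the highest of the 8 brains and the other two lay within the control range. The log2 fold change was 0.19 (SE 0.14, 95% interval -0.11 to 0.49), and it was 0.10 without exposed replicate 1 and 0.31 without exposed replicate 3. The study also measured proteins in these same brains and reported CRABP1 protein as significantly more abundant in the exposed ones after correction. RNA and protein are different measures, and a link between them was not tested. *Crabp2* (chr3:87948666-87953376, plus strand) had the fewest reads of the set, between 139 and 289 per brain, and was at 5.50, 5.32, 9.44 and 7.24 CPM in control and 8.03, 7.51, 6.46 and 6.13 CPM in exposed brains. The exposed values fell inside the control range, and the log2 fold change was 0.034 (SE 0.17, 95% interval -0.33 to 0.40).

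*Stra6* (chr9:58063788-58153996, plus strand), the gene of the retinol uptake receptor of the blood-brain and choroid plexus barriers and the eye, was at 11.9, 10.5, 14.0 and 11.6 CPM in control brains and at 12.4, 11.1, 14.0 and 11.2 CPM in exposed brains. The groups had nearly the same range, and the log2 fold change was 0.022 (SE 0.12, 95% interval -0.24 to 0.28). The differences of *Stra6*, *Crabp2*, *Rarg* and *Rxrb* took either sign when single brains were left out.

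**Figure D2:**
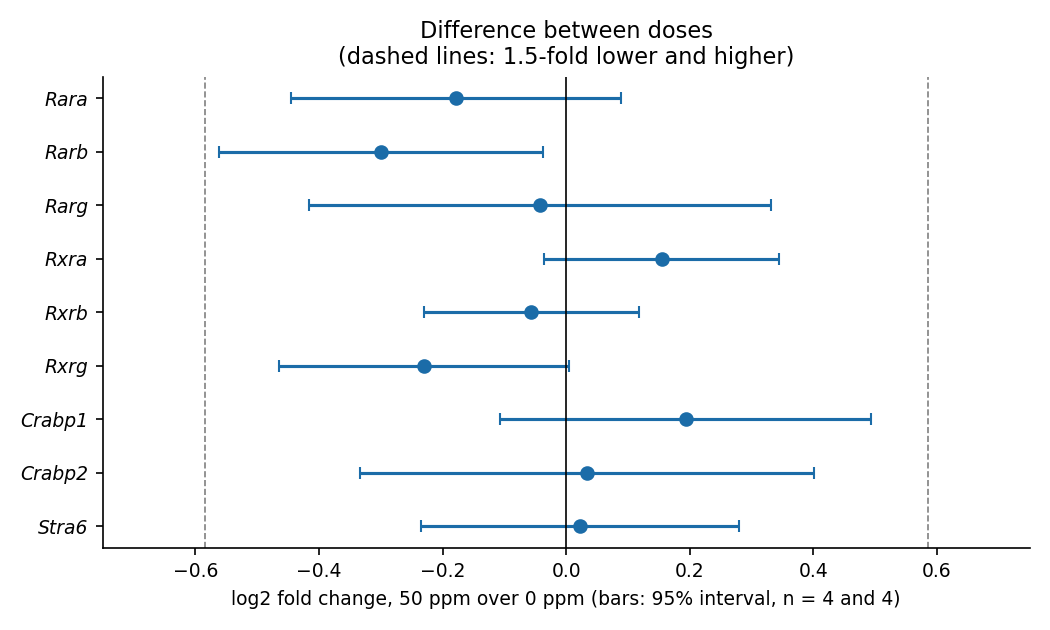
The log2 fold change of 50 ppm over 0 ppm (horizontal axis) for each gene, with points for edgeR's estimate and bars for its 95% interval (n = 4 and 4), a solid line at no change and dashed lines at 1.5-fold lower and higher. All intervals lie between the dashed lines, and that of *Rarb* (-0.56 to -0.037) is the only interval that leaves out 0.

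The genes also differed in how much their RNA varied among brains of the same group. *Rxra* in exposed brains varied least, with a coefficient of variation of 3.67%, and *Crabp2* in control brains varied most, with 27.9%. For *Rarb* the coefficient of variation was 20.2% in control and 11.1% in exposed brains, and for *Rxrg* it was 17.4% and 9.35%. For *Crabp1* it was 13.1% in control and 20.4% in exposed brains. The difference in spread between the groups was not tested.

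Per kilobase of exon, the scale on which levels of different genes can be set side by side, the 9 genes fell on 3 levels. *Crabp1* was at 16.5 ± 2.94, *Rxrb* at 16.0 ± 1.32 and *Rxrg* at 14.8 ± 2.37 CPM per kb (SD over the 8 brains), and their ranges overlapped. *Crabp2* (5.26 ± 1.05), *Rarb* (4.72 ± 0.915), *Rxra* (4.71 ± 0.400) and *Rara* (3.59 ± 0.524) followed, each overlapping the next. The ranges of *Rxrg*, with a lowest value of 12.4 CPM per kb, and *Crabp2*, with a highest of 7.14, did not overlap. *Stra6* (2.07 ± 0.223) and *Rarg* (1.86 ± 0.410) came last, and the highest *Stra6* value of 2.40 was below the lowest *Rara* value of 2.71.

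The length used moved some of these places. With the length of the longest transcript in place of the merged exons, *Rxrb* came first at 24.1 CPM per kb, ahead of *Crabp1* at 16.5 and *Rxrg* at 16.1, and *Rarb* at 8.0 came ahead of *Crabp2* at 7.47. *Rarg* was lowest with either length, at 2.68 CPM per kb with the longest transcript. As these are whole brains, a level cannot separate a few cells with much RNA from many cells with little, and a lower level cannot separate fewer cells from less RNA per cell.

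**Figure D3:**
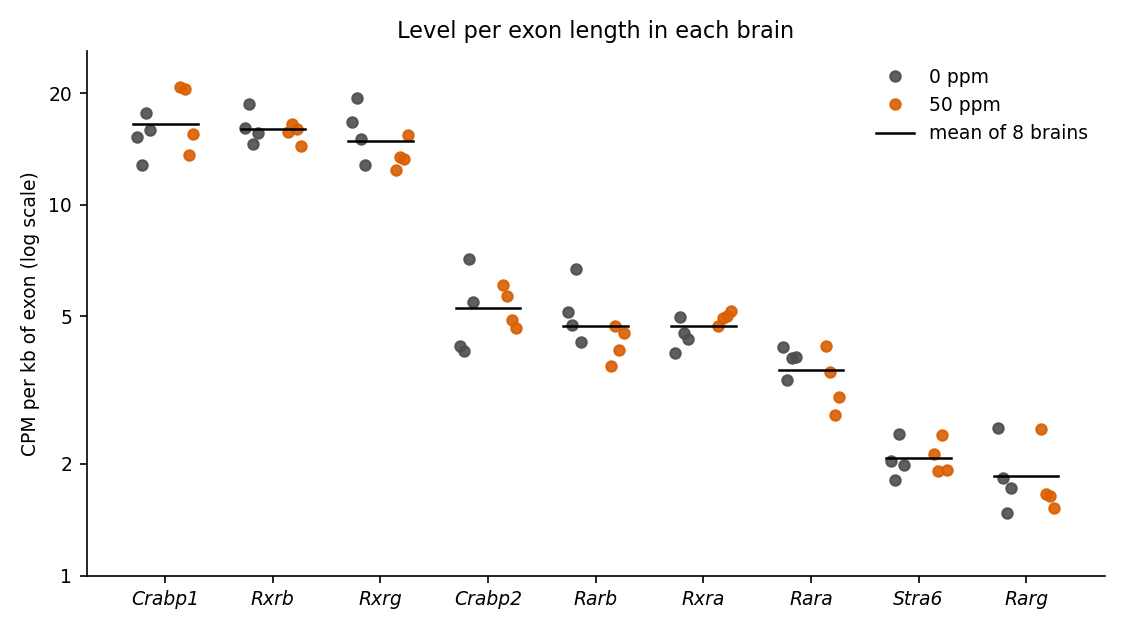
CPM per kb of exon on a log scale (vertical axis) for the 9 genes in the order of their mean over 8 brains (black lines), with a point for each brain, grey for 0 ppm and orange for 50 ppm. The 3 genes on the left lie above 12 CPM per kb, 4 genes lie between 2.71 and 7.14, and *Stra6* and *Rarg* lie at or below 2.51.

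Within the RAR family, *Rarb* made up the greatest mean share of the summed CPM per kb, with 47.5% ± 5.75 in control and 45.3% ± 6.55 in exposed brains (SD, n = 4). *Rara* made up 35.1% ± 3.05 and 35.4% ± 3.58, and *Rarg* 17.4% ± 3.77 and 19.3% ± 3.44. The summed RAR level was 10.9 ± 1.16 CPM per kb in control and 9.43 ± 0.863 in exposed brains, and the summed RXR level was 36.7 ± 4.58 and 34.2 ± 1.03. The groups overlapped in each of these sums and shares.

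Within the RXR family, *Rxrb* made up 44.4% ± 2.21 of the sum in control and 45.7% ± 3.06 in exposed brains, and *Rxrg* 43.4% ± 2.91 and 39.8% ± 2.87. *Rxra* made up the smallest share, between 10.8% and 13.2% in control brains and between 14.2% and 14.7% in exposed brains. This was the only 1 of 8 shares (3 RARs, 3 RXRs and 2 CRABPs) in which the groups did not overlap. It combines a higher mean of *Rxra* with lower means of *Rxrb* and *Rxrg*, none of which passed a test, so it is given as a description. In CPM, the groups did not overlap for 2.09% of all genes tested. The brainstem and spinal cord markers described below did not overlap between the groups either. With these markers as a covariate, the log2 fold change of *Rxra* was 0.064, against 0.15 without it. Their part in the *Rxra* share was not tested. The groups were also apart when the share was taken from the longest transcripts (9.44% to 11.5% in control and 12.2% to 13.0% in exposed brains) or from CPM without a length (17.5% to 21.0% and 21.9% to 23.3%), both computed after the data were seen. These alternatives rescale the same counts, so they are not a separate check. *Crabp1* made up 75.1% ± 3.06 of the CRABP sum in control and 76.6% ± 2.05 in exposed brains.

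**Figure D4:**
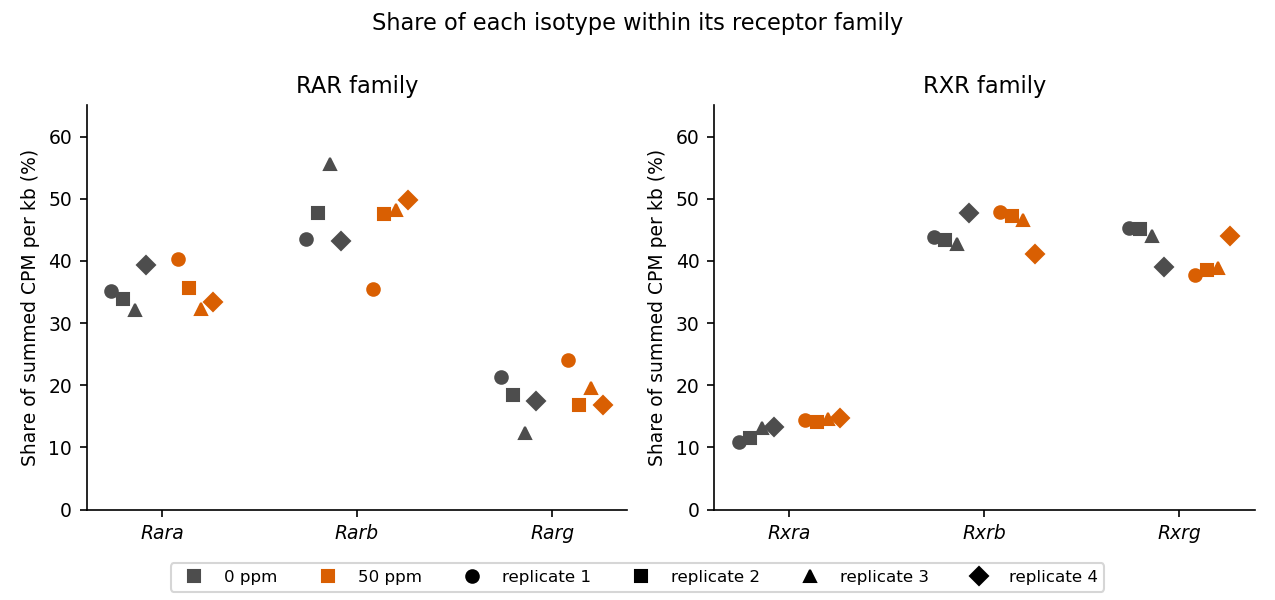
Share of each gene in the summed CPM per kb of its family (vertical axes, percent, from 0), for the RARs on the left and the RXRs on the right, with a point for each brain, grey for 0 ppm and orange for 50 ppm. The *Rxra* points of the exposed brains (14.2% to 14.7%) lie above those of the control brains (10.8% to 13.2%), and all other shares overlap.

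For each of the 9 genes, the genes whose log2 CPM followed it most closely over the 8 brains were found among 11785 other genes with a mean of at least 5 CPM, which share libraries, depth and litter with it. *Rarb* was followed most closely by *Tspyl3* (Pearson's r = 0.95) and *Tspan15* (0.94), *Rara* by *Zfp710* (0.97) and *Ccdc116* (0.97), and *Rarg* by *Mtrf1l* (0.97) and *Pik3cd* (0.97). *Rxra* was nearest to *Paqr8* (0.95) and *Supv3l1* (0.94), *Rxrb* to *Prpf19* (0.98) and *Tatdn2* (0.98), and *Rxrg* to *Laptm4a* (0.97) and *Trim45* (0.95). *Crabp1* was nearest to *Ndrg4* (0.94) and *Gfra4* (0.94), *Crabp2* to *Etnk2* (0.98) and *Necab2* (0.97), and *Stra6* to *Rasip1* (0.95) and *Adamts12* (0.95). None of the 18 nearest genes was itself one of the 9. With 8 brains and this many genes, correlations of this size are picked out by the search itself and describe these libraries only.

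The genes around the receptors in the pathway were counted in the same fit. Of 15 tested genes for enzymes and carriers of retinoids, 0 passed the adjusted threshold in edgeR. At an unadjusted p under 0.05, 2 of the 15 were higher in exposed brains, against 2.31% of all genes tested. The 2 genes were *Aldh1a2*, for an RA-synthesizing enzyme, and *Cyp26b1*, for an RA-degrading enzyme. Their log2 fold changes in edgeR were 0.44 (SE 0.096, adjusted p = 0.298) and 0.42 (SE 0.10, adjusted p = 0.421). The study's own DESeq2 analysis of these brains listed *Aldh1a2* among the genes significantly higher in exposed brains after correction. *Aldh1a3*, another RA-synthesizing enzyme, had a log2 fold change of -0.36 (SE 0.24), and *Ttr*, the thyroid hormone and retinol carrier with the highest level per length of this list, had -0.24 (SE 0.25). The median of the list was 0.042. *Cyp26a1*, whose promoter element is printed above with that of *Rarb*, had between 0 and 11 reads per brain.

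Of 18 known RA target genes, 15 could be tested. Again 0 passed the adjusted threshold in edgeR. A total of 4 had an unadjusted p under 0.05, all higher in exposed brains, against 2.31% of all genes tested. The 4 were *Cyp26b1* again, the homeobox genes *Meis1* and *Hoxb4*, and *Ret*, which encodes a receptor of glial neurotrophic factors. The brainstem and spinal cord markers described below were also higher in exposed brains, and their part in these 4 differences was not examined. The log2 fold change was 0.51 (SE 0.14) for *Meis1*, 0.44 (SE 0.18) for *Ret* and 1.81 (SE 0.69) for *Hoxb4*, which had 0 reads in at least 1 control brain and up to 213 in an exposed brain. *Ntrk2*, a neurotrophin receptor with the highest level per length of this list, had 0.11 (SE 0.074). The median of the list was 0.11, with 10 genes positive and 5 negative. *Cyp26a1* was among the 5, with -1.69 (SE 0.92, edgeR's adjusted p = 0.999) from at most 11 reads per brain.

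The proteins that work with or beside the receptors showed small differences. Of 11 genes for RXR partners, 0 had an unadjusted p under 0.05 in edgeR, and the median log2 fold change was 0.029. *Thra*, a thyroid hormone receptor gene with the highest level per length of these, had -0.067 (SE 0.081), and *Ppard* had -0.16 (SE 0.10). The orphan receptor gene *Nr4a2* had -0.20 (SE 0.18), and the liver X receptor gene *Nr1h2* had -0.085 (SE 0.10). Of 13 genes for RAR corepressors and coactivators, 0 had an unadjusted p under 0.05, and the median was 0.012. The corepressor gene *Ncor1* had -0.035 (SE 0.067), and the coactivator gene *Ep300* had -0.083 (SE 0.083). *Tbl1xr1*, of the corepressor complex, had 0.077 (SE 0.084), and the acetyltransferase gene *Kat2b* had -0.076 (SE 0.095). Of 8 genes for COUP-TF, testicular (TR) and ROR receptors, which bind like half-sites, 0 had an unadjusted p under 0.05, and the median was 0.012. *Nr2f1* had -0.0060 (SE 0.066) and *Rora* had 0.29 (SE 0.15). *Nr2f2* had 0.032 (SE 0.098) and *Nr2c1* had -0.028 (SE 0.11).

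**Figure D5:**
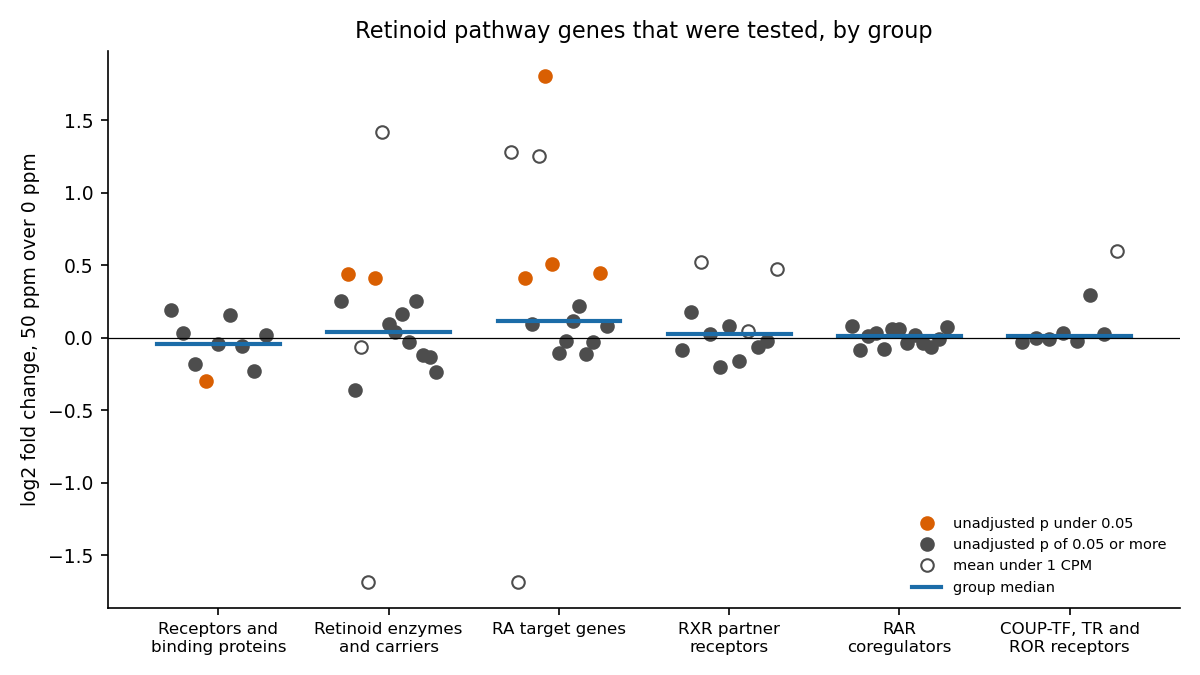
The log2 fold change of 50 ppm over 0 ppm (vertical axis) for every tested gene of 6 lists (horizontal axis), with a point for each gene, open where its mean is under 1 CPM, orange where its unadjusted p in edgeR is under 0.05, and a blue line at the list's median. The receptors and binding proteins have a median of -0.043 and 1 orange point, *Rarb*, while the enzymes and carriers have 2 and the RA target genes 4, all above 0. Of all genes tested, 3.75% were below this p.

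Markers of brain regions and of other tissues were summed in each brain, because whole brains may differ in what was dissected. The 12 striatal markers, the region where *Rarb* and *Rxrg* are known to be abundant, summed to between 456 and 486 CPM in control and between 449 and 484 CPM in exposed brains. The log2 fold change was negative for 9 of them and positive for 3, with a median of -0.12. By name, 3 of the 12 had a lower mean in exposed brains and 1 a higher mean at an unadjusted p under 0.05 in edgeR. Of all genes tested, 1.44% were lower and 2.31% higher at this p. The 3 lower markers were *Drd1*, a dopamine receptor gene, with a log2 fold change of -0.35 (SE 0.13), *Six3* with -0.41 (SE 0.16) and *Gpr6* with -0.53 (SE 0.20). The higher marker was *Ebf1*, a transcription factor gene of striatal neurons and of blood vessels, with 0.42 (SE 0.15). Their adjusted p in edgeR was 0.999, and the part of striatal tissue in the *Rarb* and *Rxrg* values was not tested.

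The 14 brainstem and spinal cord markers summed to between 26.6 and 85.0 CPM in control and between 100 and 132 CPM in exposed brains, without overlap. The lowest sum, 26.6 CPM, was that of control replicate 1. In edgeR, 8 of the 14 had a higher mean in exposed brains at an unadjusted p under 0.05, against 2.31% of all genes tested. *Slc6a5*, the glycine transporter gene of inhibitory hindbrain neurons, was at 13.6 ± 14.2 CPM in control and 36.1 ± 14.6 CPM in exposed brains (SD, n = 4). With the mean log2 CPM of these markers as a covariate, the log2 fold change was -0.39 for *Rarb*, 0.064 for *Rxra*, -0.13 for *Rxrg* and 0.35 for *Rarg*, each with an adjusted p of 1.000 in edgeR. Hindbrain content and maternal exposure cannot be told apart in these 8 brains for genes that follow both.

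Markers of tissues that express retinoid genes themselves overlapped between the groups. The 10 meningeal markers summed to between 383 and 500 CPM in control and between 436 and 518 CPM in exposed brains, and the 8 choroid plexus markers to between 477 and 1252 CPM and between 369 and 832 CPM. The 8 tested markers of retina and pigment epithelium, where *Stra6* is known to be high, summed to between 37.4 and 59.5 CPM and between 39.0 and 41.1 CPM, most of it from *Rlbp1*, which brain glia also express. Endothelial markers summed to between 248 and 279 CPM and between 249 and 292 CPM, blood markers to between 128 and 312 CPM and between 101 and 404 CPM, and skeletal muscle markers to between 10.3 and 13.2 CPM and between 10.1 and 13.1 CPM. At an unadjusted p under 0.05, *Slc6a13* of the meningeal markers had a higher mean in exposed brains (log2 fold change 0.32, SE 0.093), and *Crx* (-1.71, SE 0.50) and *Dct* (-1.0, SE 0.46) of the retinal markers had lower means at under 1 CPM, while 0 markers of the other tissues named in this paragraph passed. None of these markers passed the adjusted threshold in edgeR. Of all genes tested, 2.31% were higher and 1.44% lower in exposed brains at this unadjusted p. The part of these tissues in the values of the 9 genes was not tested.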

How the data were processed

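The authors deposited unnormalized counts of reads on each gene for the 8 libraries, in a table for each parental genome. Low-quality first bases had been trimmed before alignment (STAR) and counting (htseq-count). Tool versions and the strand setting are not given in the sources used here. Reads of both alleles were aligned to the B genome (GRCm38) in the table used here. Symbols were found for 49326 of 49585 identifiers.

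Following the study's filter, genes at 0 in over 5 of the 8 libraries were excluded. Counts were TMM-normalized and tested with edgeR 4.0.16 (glmQLFit and glmQLFTest) in R 4.3.3, in a model of treatment alone. The Benjamini-Hochberg adjustment covered the 23113 genes tested. CPM used TMM-normalized library sizes, and log2 CPM a prior count of 2. Levels per kb used merged GENCODE exons. The spread between any 2 replicates exceeded counting noise (chi-square per degree of freedom from 8.67 to 21.1).

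Alternatives were DESeq2 1.42.0, its size factors in edgeR, no filter, a minimum of 10 counts in 4 libraries, a covariate (the mean log2 CPM of the brainstem and spinal cord markers), the C genome, the longest transcript as length and each library left out. From each list, the text names the 3 genes with the smallest p among those with a mean of at least 1 CPM and the gene with the highest level per length; of the marker lists only some of these are named. *Cyp26a1*, *Six3*, *Top2b*, *Crx*, *Dct* and *Ret* were named after their values were seen. The 9 genes and all lists were chosen with earlier results of these data known. The code was tested on simulated data. Figures were drawn with matplotlib 3.10.9.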

Additional observations from a re-analysis of the deposited data

Results flagged for a closer look

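In each group of 4 brains, the 9 genes and the marker sums were checked for a brain far from the other 3 (Dixon's test at the 95% level). Of 34 groups, 3 were found, where chance gives about 1 in 20. *Rarg* in exposed replicate 1 was at 10.6 CPM, above the 6.48 to 7.09 CPM of the other exposed brains, and without this brain its log2 fold change was -0.23. The striatal markers of control replicate 4 summed to 456 CPM, below the 481 to 486 CPM of the other control brains, and without this brain the log2 fold change was -0.38 for *Rarb* and -0.32 for *Rxrg*. The choroid plexus markers of control replicate 2 summed to 1252 CPM, above the 477 to 594 CPM of the other control brains, and without this brain *Rxrb* had 0.017 and *Stra6* -0.036. Causes were not tested.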

How the results depend on the processing

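The count of the 9 genes past the adjusted threshold was 0 under every alternative run, and their adjusted p lay between 0.894 and 1.000. Of 117 alternative log2 fold changes (13 for each gene), 104 kept their direction. With the hindbrain marker score as a covariate (the 14 brainstem and spinal cord markers), the direction turned for *Rarg* (0.35), *Crabp2* (-0.26) and *Stra6* (-0.033). Leaving out a library in turn gave -0.30 to -0.081 for *Rara*, -0.38 to -0.15 for *Rarb*, -0.23 to 0.13 for *Rarg*, 0.10 to 0.21 for *Rxra*, -0.10 to 0.017 for *Rxrb*, -0.32 to -0.12 for *Rxrg*, 0.10 to 0.31 for *Crabp1*, -0.070 to 0.23 for *Crabp2* and -0.045 to 0.11 for *Stra6*. *Rarb* had an unadjusted p under 0.05 in 10 of its 13 alternatives. The causes of the turned directions were not tested.

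The count of all genes past the adjusted threshold, 4, was 18 with DESeq2, 52 without a filter, 2 with at least 10 counts in 4 libraries, 0 with the covariate and 2 for the C genome, and it ran from 2 to 20 when libraries were left out (20 without control replicate 3). With the longest transcript as length, the mean level in CPM per kb was 4.63 for *Rara*, 8.0 for *Rarb*, 2.68 for *Rarg*, 5.24 for *Rxra*, 24.1 for *Rxrb*, 7.47 for *Crabp2* and 3.93 for *Stra6*. The C genome was not run for the 9 genes, because no table at hand pairs its identifiers with them. No paired analysis was possible because the labels carry no replicate numbers. Depth limits *Crabp2* and *Rarg* most, with at least 139 and 147 reads per brain, and 4 brains per group limit all 9 genes to the intervals given.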
